A study of Setaria viridis with 15 samples.

Results

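Shoots of the C4 grass Setaria viridis were compared after growth beside the bacterial isolate CTB P6B8 (3 libraries) and in mock-control plates with no bacteria (4 libraries), together 7 of the 15 libraries of the study. All plants were of the WT genotype, and the comparison covers every gene expressed in these shoots. Each plate held 2 seedlings, moved there when 5 days old, and an inner dish of LB medium onto which 20 µL of diluted bacterial culture was spread, so that seedlings and bacteria sat in separate dishes of a sealed plate. Co-cultivation lasted 7 days under a 12 h photoperiod, and the controls went through the same steps without inoculum. The other 8 libraries, 4 beside isolate AI2.2-A and 4 beside isolate MTS P5D6, share the fit and serve for 2 direct comparisons at the end. The species of the isolates and the volatiles they gave off were not stated in the labels or files used here.

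Bacteria release mixtures of small volatile molecules, such as alcohols, ketones and sulfides, that reach a plant through the air. In several plant species such mixtures are known to change growth, mineral nutrition and defence. A C4 leaf fixes carbon first through phosphoenolpyruvate carboxylase in the mesophyll and then through Rubisco in the bundle sheath, and it takes in nitrogen as nitrate or ammonium, which glutamine synthetase and glutamate synthase turn into amino acids.

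Gene-level read counts as deposited summed to 13852517 to 20556455 per control library and 17118899 to 25123025 per CTB P6B8 library. Of 28032 genes in the table, 20310 passed a filter on low counts and were tested with edgeR's quasi-likelihood test. A gene is called when its p-value, adjusted by the Benjamini-Hochberg method over all 20310 genes, is below 0.05, and "rose" and "fell" are used of called genes only. Levels are in counts per 1000000 counts of the scaled library total (CPM). Changes are log2 fold changes of CTB P6B8 over control, with a standard error worked back from the F statistic of that test. The replicates are labelled as biological. The p-values set each change against the spread between replicates within groups, estimated from all 15 libraries. These are bulk samples, so fewer cells of a type and less RNA per cell cannot be told apart.

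Leaf markers were present in all 7 libraries. The 50 shoot markers (C4 enzymes, Rubisco small subunits and photosystem proteins) summed to 59727 to 68180 CPM in controls and 38869 to 46470 CPM beside the isolate, and none was at 0. Casparian strip proteins of roots summed to 1.16 to 3.72 CPM over the 7 libraries, and oleosins of seeds to 0.0763 to 0.387 CPM. Genes described as of root cap, root hair or root-specific summed to 408 to 474 CPM in controls and 338 to 400.4 CPM beside the isolate. Zeins and prolamins were at 2.29 to 3.98 CPM in controls and 4.25 to 5.01 CPM beside the isolate, and floral MADS-box genes at 902 to 932 and 1065 to 1095 CPM. The first principal component of log2 CPM over the 7 libraries held 67.2% of the variance and set the groups apart. The second held 8.80% and set CTB P6B8 replicate 2, at -36.8, apart from replicates 1 and 3, at 20.7 and 17.6. CTB P6B8 replicate 3 stood apart in another way, with 0.184% of its counts in genes of the plastid genome against 0.0386% and 0.0550% in replicates 1 and 2 and 0.0209% to 0.0307% in controls.

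Beside the isolate, 9217 genes were called, or 45.4% of those tested. Of these, 4600 (22.6%) were higher and 4617 (22.7%) were lower, and over all genes tested the median change was 0.00 on the log2 scale. The balance between higher and lower calls changed with the size of the change and with the level of the gene. Among the 4608 calls of less than 1.5-fold, 36.5% were higher, and this share was 74.7% of the 1624 calls from 2- to 4-fold and 88.1% of the 185 calls of 8-fold or more. A fold of at least 2 was reached by 2206 called genes (10.9% of those tested), 1738 higher (8.56%) and 468 lower (2.30%). With the genes split into 5 classes of equal size by mean level, 1138 rose and 287 fell in the lowest class, and 634 rose and 1658 fell in the highest. The filter and these levels used the isolate libraries too. A gene near 0 in controls could thus enter the lowest class by being high beside an isolate. How far this sets the balance was not tested. The 2-fold higher genes, which were chosen on these libraries, held 1.41% to 1.57% of control counts and 4.23% to 5.03% of CTB P6B8 counts. All 3 CTB P6B8 libraries lay above all 4 controls in 1629 of the 1738 genes that rose at least 2-fold, and below them in 439 of the 468 that fell at least 2-fold. Over all genes tested, 50.0% had groups that did not overlap. The 1738 and 468 genes were chosen on these same libraries, so their separation follows in large part from that choice. Scaling by library totals alone moved the median of all genes to 0.10 and the higher share of calls from 49.9% to 63.8%. Without CTB P6B8 replicate 3 the higher share was 57.6%.

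**Figure D1:**
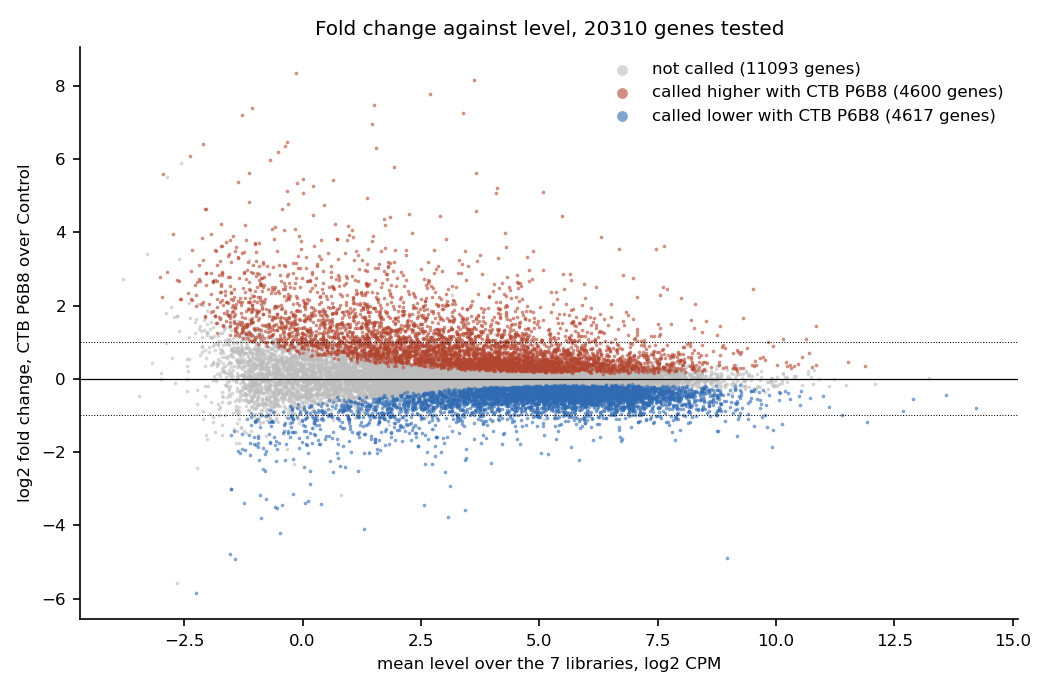
Log2 fold change of CTB P6B8 over control (vertical axis) against mean log2 CPM over the 7 libraries (horizontal axis) for the 20310 genes tested, with genes called higher, called lower and not called in separate colours. Large changes lie mostly above 0 among genes of low level, while in the highest of 5 classes by level 1658 fell and 634 rose. The low-count filter and the mean level both used isolate libraries, so genes near 0 in controls could enter through them.

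Genes were grouped into 68 lists by the words of their descriptions (pathways, transporter and regulator families). In 43 lists more members rose than fell, in 22 more fell, and in 3 the counts were equal. The summed level of the members did not overlap between the groups in 43 lists, higher beside the isolate in 25 and lower in 18. Lists are set out in the following paragraphs with the number tested, the number that rose and fell, and their median log2 fold change, beside 22.6% higher, 22.7% lower and 0.00 for all genes. They were not tested as sets.

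**Figure D2:**
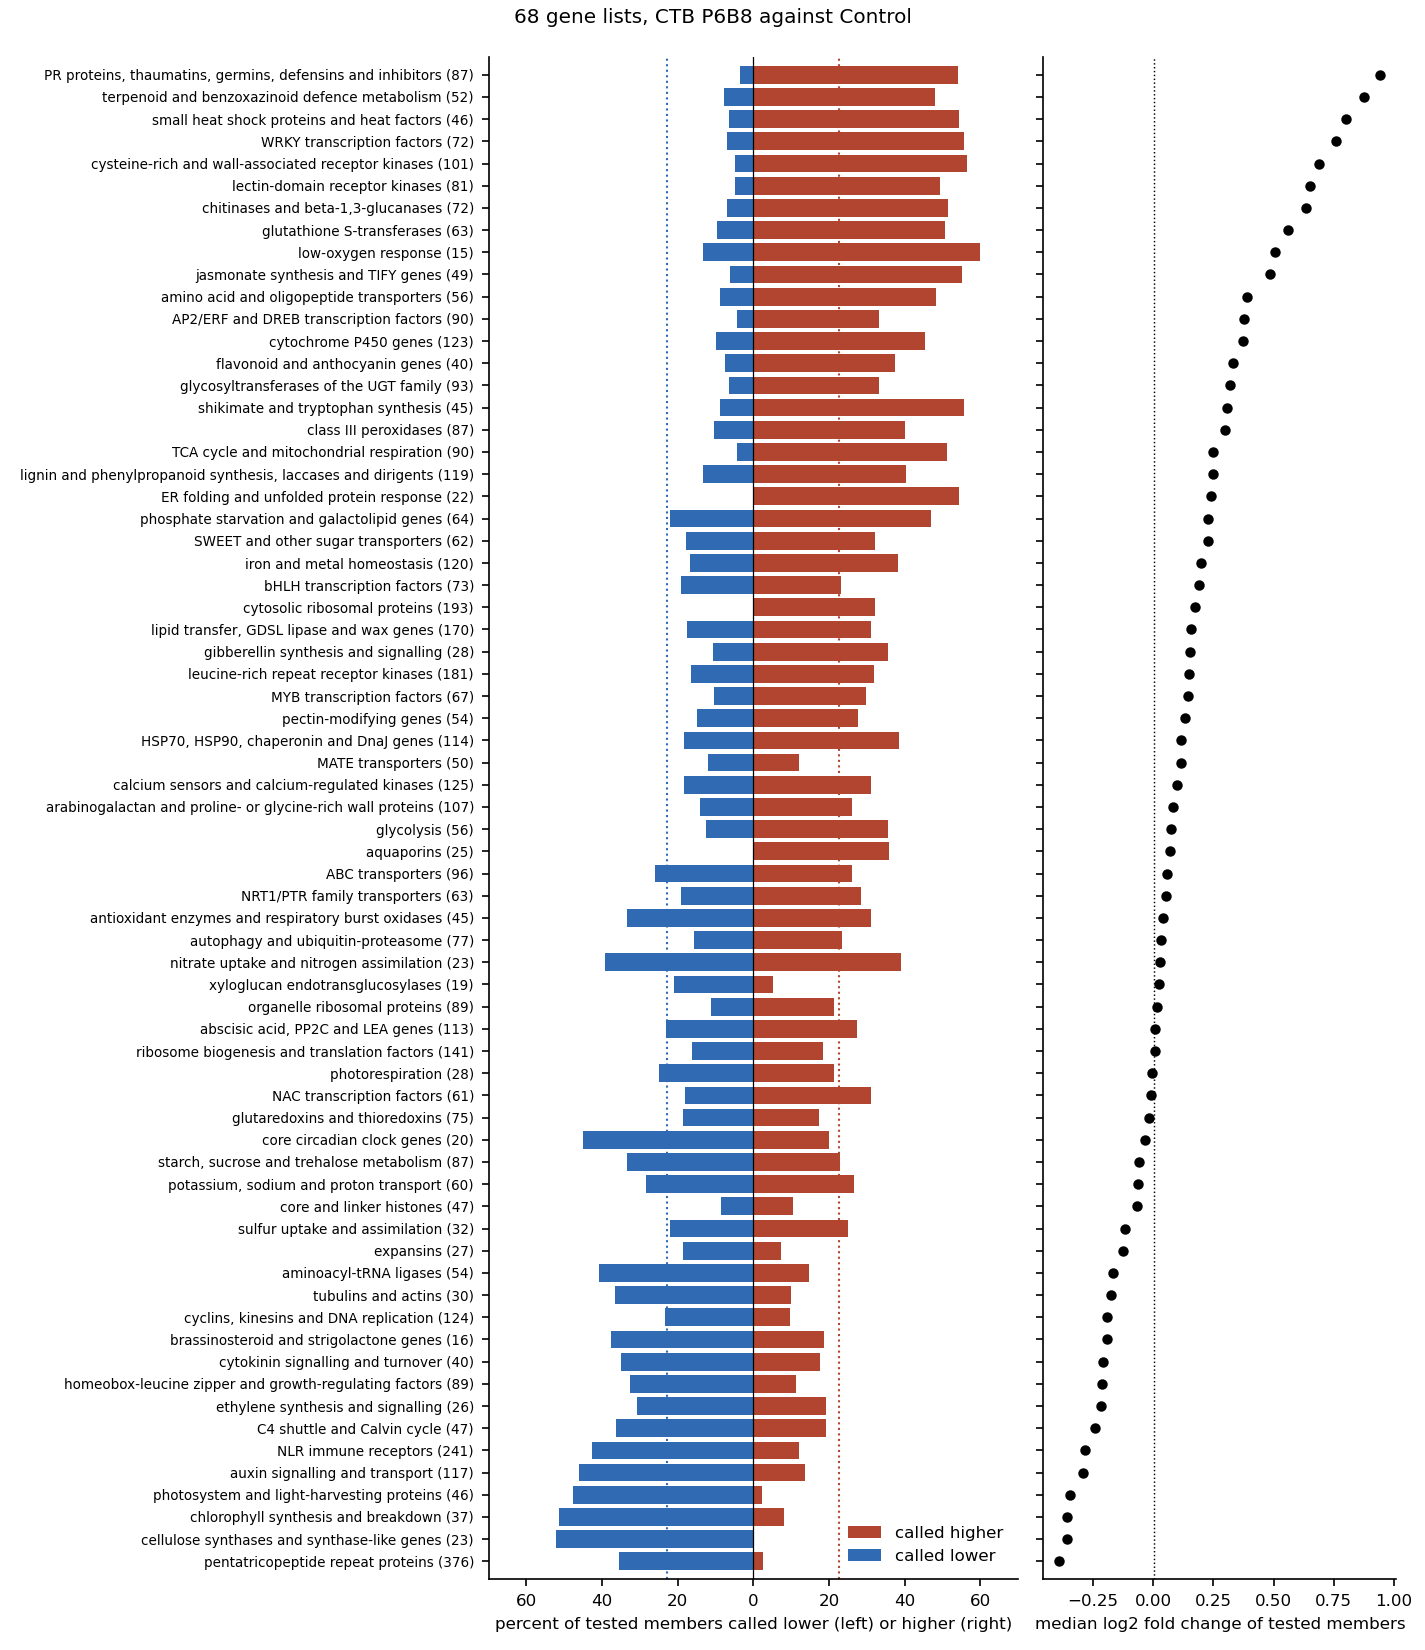
Share of tested members called higher and lower (horizontal axis, percent) for each of 68 gene lists, with the median log2 fold change of each list beside it. Lists of pathogenesis-related proteins, terpenoid metabolism, heat shock proteins, WRKY factors and cysteine-rich and lectin receptor kinases have the highest medians, and lists of pentatricopeptide repeat, cellulose synthase, chlorophyll, photosystem, auxin and NLR genes the lowest.

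A nitrate reductase, nitrite reductase and ferredoxin-dependent glutamate synthase fell, and ammonium transporters and a cytosolic glutamine synthetase rose. The nitrogen list as a whole was balanced, with 9 of 23 genes tested rising and 9 falling, and a median of 0.03. NADH nitrate reductase (LOC117860413), which turns nitrate into nitrite, was at 910, 738, 924 and 841 CPM in controls and 36.3, 26.3 and 24.1 CPM beside the isolate, a log2 fold change of -4.88 ± 0.43. Nitrite reductase (LOC117839299), the next step in the plastid, was at 95.8, 80.7, 89.2 and 79.3 CPM in controls and 18.7, 16.5 and 20.7 CPM beside the isolate (-2.21 ± 0.17). Ferredoxin-dependent glutamate synthase (LOC117843736), which makes glutamate from glutamine in the plastid, was at 1385, 1305, 1395 and 1482 CPM in controls and 387, 366 and 397 CPM beside the isolate (-1.86 ± 0.13, edgeR adjusted p = 1.58e-07). In all 3 genes every CTB P6B8 library lay below every control. Plastid glutamine synthetase (LOC117850814, -0.76 ± 0.14) and mitochondrial glutamate dehydrogenase 2 (LOC117864129, -0.77 ± 0.19) fell as well. In the other direction, the cytosolic glutamine synthetase isozyme 1-1 (LOC117837154) was at 211, 196, 196 and 194 CPM in controls and 391, 408 and 363 CPM beside the isolate (0.96 ± 0.08, edgeR adjusted p = 3.39e-07). Ammonium transporter 2 member 1 (LOC117846954), which carries ammonium into cells, was at 8.77, 9.51, 11.6 and 7.70 CPM in controls and 38.2, 31.9 and 30.2 CPM beside the isolate (1.84 ± 0.17), and ammonium transporter 1 member 1 (LOC117865252) rose by 0.76 ± 0.17. Asparagine synthetase (LOC117849985), which makes the transport amino acid asparagine, was not called, at 8495 to 10536 CPM in controls and 9422 to 9973 CPM beside the isolate (0.03 ± 0.13, edgeR adjusted p = 0.884). Both reductases, plastid glutamine synthetase, glutamate dehydrogenase, ammonium transporter 1 member 1 and asparagine synthetase were chosen after their values were seen.

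**Figure D3:**
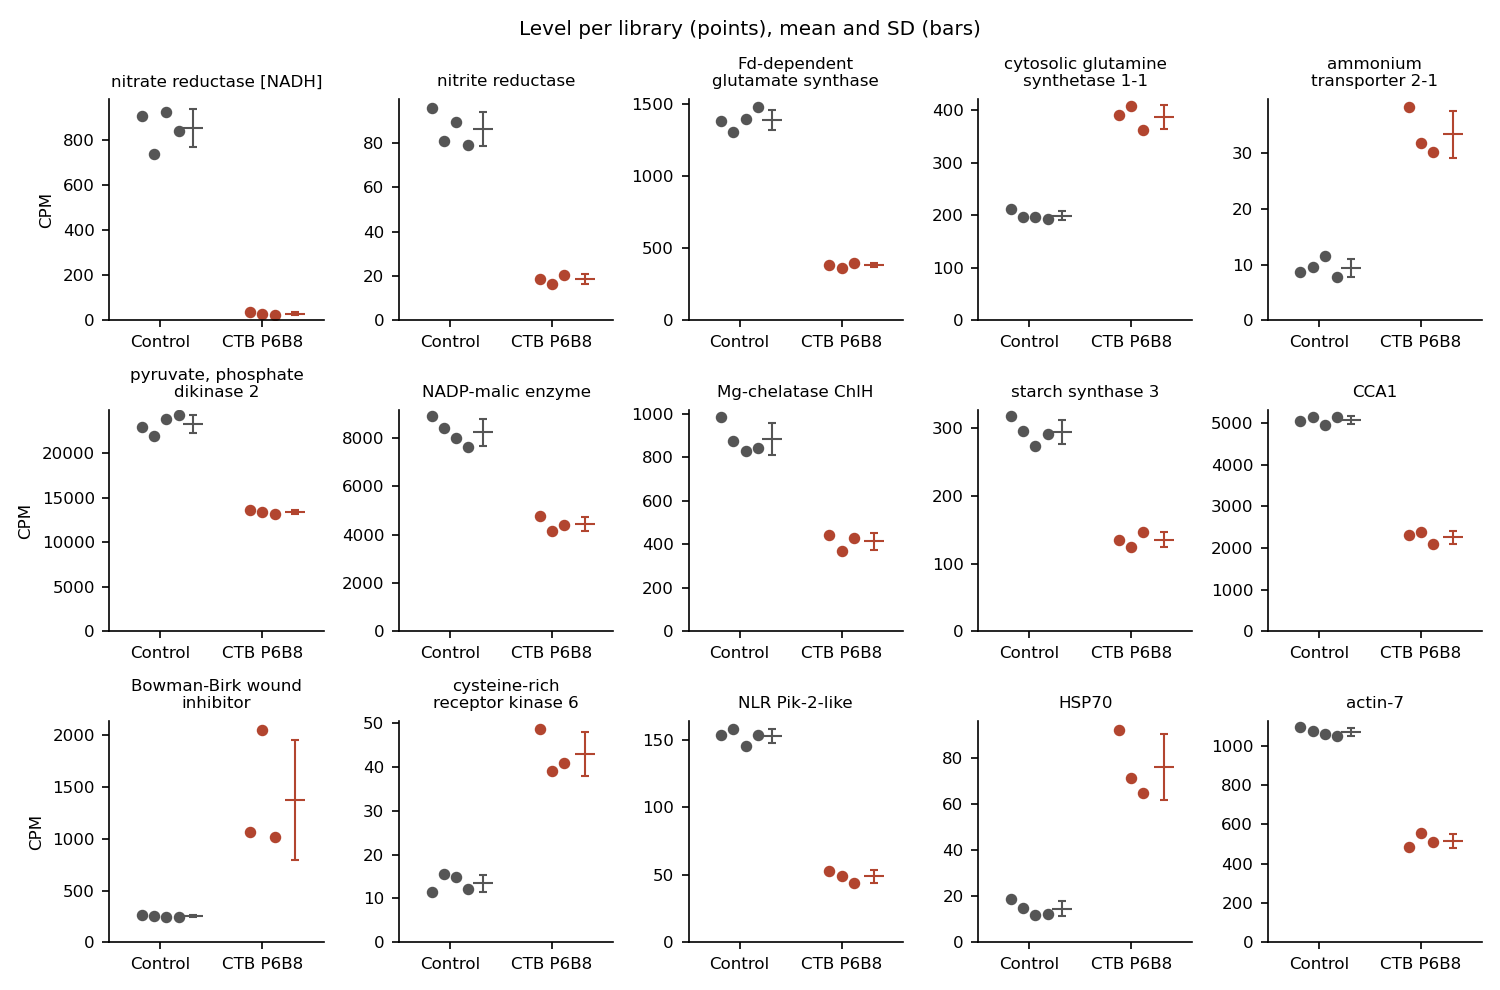
Level in CPM (vertical axis) of 15 named genes in each of the 4 control and 3 CTB P6B8 libraries, with bars for the mean and SD of each group. Nitrate reductase, nitrite reductase and ferredoxin-dependent glutamate synthase lie lower in all 3 CTB P6B8 libraries, and cytosolic glutamine synthetase and ammonium transporter 2 member 1 higher.

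Transporters of amino acids and aquaporins had more members that rose than fell. Of 56 amino acid and oligopeptide transporters, 27 rose and 5 fell (3 without CTB P6B8 replicate 3), with a median of 0.39, and their sum went from 2245 to 2459 CPM in controls to 2657 to 2933 CPM beside the isolate. Amino acid permease 3 (LOC117850658), which imports amino acids across the plasma membrane, rose by 0.98 ± 0.14. Of 25 aquaporins, the membrane channels for water, 9 rose and 0 fell. Their sum was 4255 to 4750 CPM in controls and 5348 to 5724 CPM beside the isolate. The tonoplast aquaporins TIP2-2 (LOC117853268, 0.41 ± 0.09), TIP1-1 (LOC117838891, 0.39 ± 0.11, chosen after its values were seen) and TIP4-2 (LOC117848247, 1.56 ± 0.30) were among them. Of the NRT1/PTR family, transporters of nitrate, peptides and hormones, 18 of 63 rose and 12 fell (6 without CTB P6B8 replicate 3).

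More genes of phosphate and metal nutrition rose than fell. Of 64 genes of phosphate starvation and galactolipid synthesis, 30 rose, 20 of them at least 2-fold, and 14 fell, none 2-fold. Inorganic phosphate transporter 1-8 (LOC117840071), which takes up phosphate, was at 19.8, 24.4, 20.8 and 19.4 CPM in controls and 72.4, 73.9 and 67.8 CPM beside the isolate (1.76 ± 0.16). Glycerophosphodiester phosphodiesterase (LOC117839276), of a family that releases glycerol phosphate from membrane lipid, was at 6.61, 8.92, 8.70 and 7.55 CPM in controls and 51.0, 44.1 and 38.3 CPM beside the isolate (2.48 ± 0.23). The groups did not overlap in either gene, although the summed level of the list did overlap. Of 120 iron and metal genes, 46 rose and 20 fell (12 without CTB P6B8 replicate 3). Copper transporter 1 (LOC117855355) was at 24.2, 18.4, 21.8 and 17.5 CPM in controls and 71.0, 95.7 and 84.4 CPM beside the isolate (2.03 ± 0.14), and a metal-nicotianamine transporter (LOC117865497), of the family that moves chelated iron, rose by 1.77 ± 0.15. Against them, the chloroplast ferric reductase FRO7 (LOC117864494), which supplies iron to chloroplasts, fell by 1.38 ± 0.13. Of 32 sulfur genes 8 rose and 7 fell, and both shares (25.0% and 21.9%) were near the 22.6% and 22.7% of all genes. Sulfate transporter 1.2 (LOC117860613, 1.07 ± 0.15) and cysteine synthase (LOC117848280, 0.59 ± 0.10) rose, and adenylyl-sulfate kinase 3 (LOC117835904, -1.22 ± 0.10) fell.

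More genes of the C4 and Calvin cycles, of chlorophyll metabolism and of starch and sucrose metabolism fell than rose, and the summed level of each of these lists was lower in every CTB P6B8 library than in any control. The C4 and Calvin cycle list, of 47 genes tested, summed to 62619, 54518, 55870 and 54720 CPM in controls and 37846, 35619 and 37523 CPM beside the isolate, or 0.650 of the control mean. In this list 17 members fell and 9 rose, with a median of -0.24. Pyruvate, phosphate dikinase 2 made up much of the sum and of its fall. Pyruvate, phosphate dikinase 2 (LOC117850669), which regenerates the acceptor of the C4 cycle, was at 22992, 22006, 23883 and 24339 CPM in controls and 13639, 13470 and 13234 CPM beside the isolate (-0.79 ± 0.11, edgeR adjusted p = 4.64e-05). The C4-type phosphoenolpyruvate carboxylase (LOC117854270, -0.55 ± 0.16), chloroplast NADP-malic enzyme (LOC117857444, -0.89 ± 0.13), which frees CO2 in the bundle sheath, and Rubisco activase (LOC117833342, -0.71 ± 0.13) fell too. A carbonic anhydrase (LOC117855863), which supplies bicarbonate to the C4 cycle, was at 2232, 1227, 1288 and 1189 CPM in controls and 539, 714 and 629 CPM beside the isolate (-1.24 ± 0.30). Control replicate 1 was the highest of the controls for the carbonic anhydrase and the carboxylase. Members that rose included phosphoenolpyruvate carboxylase 2 (LOC117843888, 0.74 ± 0.09) and phosphoenolpyruvate carboxykinase (LOC117837447, 0.50 ± 0.12). A Rubisco small subunit gene (LOC117850448) was at 1438 to 1808 CPM in controls and 1533 to 1963 CPM beside the isolate and was not called (0.14 ± 0.10). The carboxylase, malic enzyme, activase, carboxykinase and small subunit were chosen after their values were seen.

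Of 37 genes of chlorophyll synthesis and breakdown, 19 fell and 3 rose (1 without CTB P6B8 replicate 1), with a median of -0.36. The subunit ChlH of magnesium chelatase (LOC117863876), which places magnesium in the chlorophyll ring, was at 987, 876, 828 and 844 CPM in controls and 441, 370 and 431 CPM beside the isolate (-1.09 ± 0.12). The cyclase of the following pathway stage (LOC117859246, -0.99 ± 0.10) and glutamyl-tRNA reductase 2 (LOC117838070, -0.94 ± 0.12, chosen after its values were seen), the entry step, fell as well. Pheophorbide a oxygenase (LOC117839075), of chlorophyll breakdown, was higher by 0.47 ± 0.14 with groups that overlapped, and by 0.23 (edgeR adjusted p = 0.139) without CTB P6B8 replicate 1. Of 46 photosystem and light-harvesting genes 22 fell and 1 rose, with a median of -0.34. That count of 22 was 14 without control replicate 1, 14 without CTB P6B8 replicate 2 and 13 by library totals alone. Their sum overlapped between the groups, at 23853 to 28262 CPM in controls and 20998, 16913 and 24600 CPM beside the isolate. The last value is that of replicate 3, which also had the larger share of counts in plastid genes. Whether these go together was not tested. Among the 22 was chlorophyll a-b binding protein 7 (LOC117843554, -0.95 ± 0.11). The member that rose, chlorophyll a-b binding protein 1 (LOC117844591, 0.48 ± 0.18), had overlapping groups and lost its call without 5 of the 7 libraries in turn. The photorespiration list summed to 3124 to 3423 CPM in controls and 2613 to 2659 CPM beside the isolate, with 7 of 28 genes lower and 6 higher (3 without control replicate 4). Both shares, 25.0% lower and 21.4% higher, were near the 22.7% and 22.6% of all genes, and the median was -0.004.

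Named enzymes of starch and sucrose synthesis fell, and sugar transporters moved in both directions. Of 87 genes of starch, sucrose and trehalose metabolism, 29 fell and 20 rose, and their sum was 10651 to 11324 CPM in controls and 8566 to 8715 CPM beside the isolate. Starch synthase 3 (LOC117863422), which lengthens starch chains, was at 318, 296, 274 and 292 CPM in controls and 135, 125 and 148 CPM beside the isolate (-1.12 ± 0.12). Soluble starch synthase 2-1 (LOC117838981, -1.12 ± 0.11), granule-bound starch synthase 1b (LOC117844562, -1.08 ± 0.18) and sucrose-phosphate synthase (LOC117857684), which commits carbon to sucrose, fell, the last from 480.0 to 576 CPM in controls to 256 to 297 CPM beside the isolate. In the other direction, a cell wall invertase (LOC117866337, 1.52 ± 0.26), which splits sucrose outside the cell, and alpha-glucan water dikinase (LOC117852289, 0.36 ± 0.08), which starts starch breakdown, rose. Of 62 sugar transporters 20 rose and 11 fell (6 without CTB P6B8 replicate 3). The monosaccharide transporter MST4 (LOC117839413) was at 29.4, 44.3, 41.7 and 31.7 CPM in controls and 125, 144 and 81.9 CPM beside the isolate (1.67 ± 0.20). Sugar transporter ERD6-like 16 (LOC117838946) was at 59.5, 53.5, 58.9 and 56.5 CPM in controls and 22.3, 21.8 and 26.9 CPM beside the isolate (-1.27 ± 0.13, edgeR adjusted p = 2.48e-06). The granule-bound and sucrose-phosphate synthases and the dikinase were chosen after their values were seen.

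**Figure D4:**
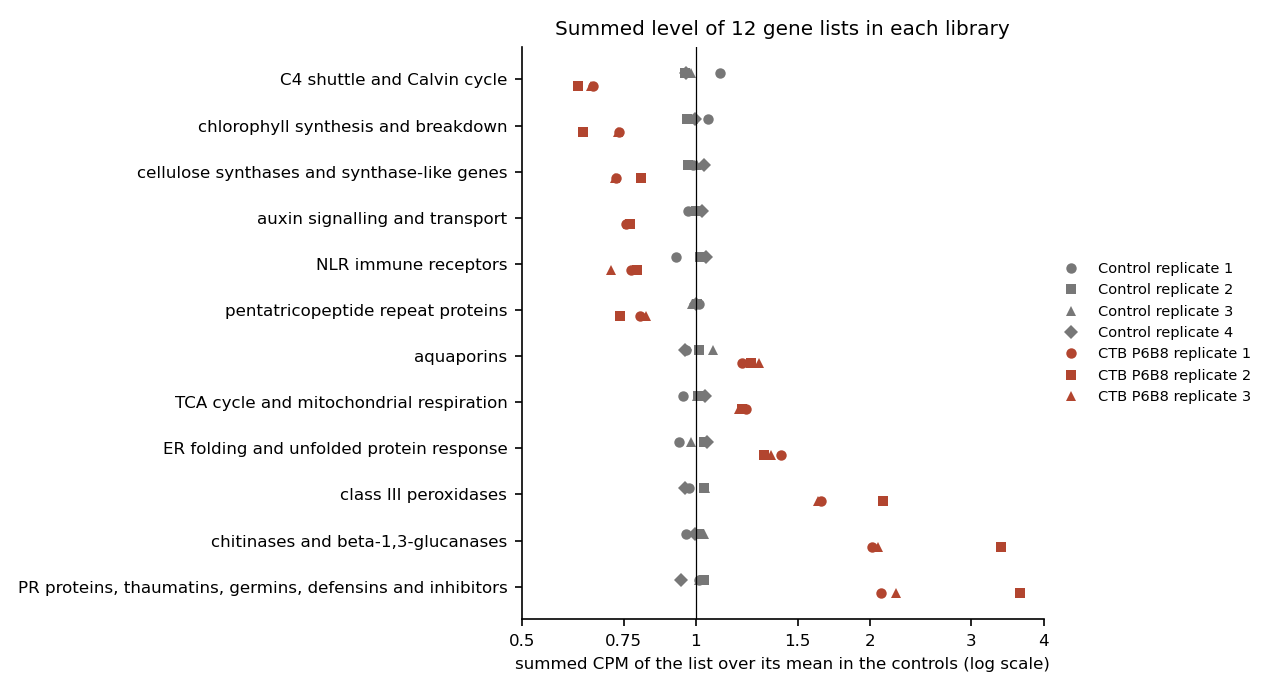
Summed level of 12 gene lists in each of the 7 libraries divided by the control mean (horizontal axis, log scale). The C4 and Calvin cycle sums of the CTB P6B8 libraries lie below all controls, and the pathogenesis-related protein and chitinase sums above them, with CTB P6B8 replicate 2 highest in both.

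More pentatricopeptide repeat proteins and aminoacyl-tRNA ligases fell than rose. Pentatricopeptide repeat proteins process the RNA of chloroplasts and mitochondria, and of 376 tested, 133 fell and 10 rose, with a median of -0.39 and sums of 3616 to 3730 CPM in controls and 2714 to 3012 CPM beside the isolate. Among them LOC117852730 was at 151, 146, 125 and 133 CPM in controls and 64.4, 56.3 and 45.3 CPM beside the isolate (-1.33 ± 0.11, edgeR adjusted p = 4.58e-07). Chloroplast elongation factor G-2 (LOC117863885), which moves the plastid ribosome along its message, was at 1321, 1218, 1113 and 1167 CPM in controls and 492, 492 and 470 CPM beside the isolate (-1.31 ± 0.13). Of 54 aminoacyl-tRNA ligases, which load amino acids onto tRNA, 22 fell and 8 rose (5 without control replicate 1, 3 without CTB P6B8 replicate 1), and the chloroplast isoleucine ligase (LOC117840186, -0.99 ± 0.10) was among the lower ones. Of 89 ribosomal proteins of organelles, 19 rose (12 without control replicate 3, control replicate 4 or CTB P6B8 replicate 3, 11 without CTB P6B8 replicate 1) and 10 fell, with a median of 0.02. Among those whose description names the chloroplast, 7 of 38 fell and 0 rose, and among those naming the mitochondrion 11 of 18 rose (7 without CTB P6B8 replicate 3) and 0 fell. All genes were also sorted by the compartment in their description, a grouping chosen after values were seen. Of 1293 genes described as chloroplastic, 511 fell and 183 rose, with a median of -0.19, and of 625 described as mitochondrial, 94 fell and 170 rose, with a median of 0.05. Over all genes tested 22.7% fell and 22.6% rose, and the mitochondrial shares were nearer to these than the chloroplast shares. Their sums were 141939 to 156299 CPM in controls and 104726 to 120745 CPM beside the isolate for the chloroplast, and 30535 to 34263 and 33296 to 35345 CPM for the mitochondrion.

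Genes on the plastid genome itself were higher, most of all in CTB P6B8 replicate 3. Of 42 tested, 35 rose and 0 fell, with a median of 2.29. Their sum was 258, 319, 308 and 222 CPM in controls and 374, 542 and 1786 CPM beside the isolate. Without replicate 3, which gives the third of these values, 14 rose and 0 fell and the median was 1.19. What sets replicate 3 apart was not tested.

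More respiration genes rose than fell, mostly by less than 2-fold. Of 90 genes of the TCA cycle and the respiratory chain, which oxidise pyruvate and make ATP, 46 rose, 6 of them at least 2-fold, and 4 fell (2 without CTB P6B8 replicate 3). The sum was 7316 to 7996 CPM in controls and 9159 to 9412 CPM beside the isolate. Succinate dehydrogenase subunit 5 (LOC117856924) was at 46.8, 47.7, 44.2 and 41.6 CPM in controls and 69.8, 68.5 and 74.2 CPM beside the isolate (0.65 ± 0.07, edgeR adjusted p = 5.73e-06), and NADP isocitrate dehydrogenase (LOC117847610) rose by 0.65 ± 0.08. Of 56 glycolysis genes 20 rose and 7 fell (4 without any 1 CTB P6B8 replicate, 3 without control replicate 2). ATP-dependent phosphofructokinase 6 (LOC117857531), a committed step, was at 75.0, 85.1, 75.2 and 82.1 CPM in controls and 221, 221 and 173 CPM beside the isolate (1.37 ± 0.12). Hexokinase-7 (LOC117848900, 1.51 ± 0.20) rose, while a pyrophosphate-dependent phosphofructokinase subunit (LOC117853801, -0.90 ± 0.11), an alternative to the ATP-dependent step, fell. Pyruvate decarboxylase 1 (LOC117858936), of the fermentation branch, was at 3.58, 5.06, 5.04 and 5.43 CPM in controls and 34.6, 18.7 and 18.5 CPM beside the isolate (2.32 ± 0.26).

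More pathogenesis-related proteins, chitinases and class III peroxidases rose than fell, and the summed level of each list was highest in CTB P6B8 replicate 2. The list of pathogenesis-related proteins, thaumatins, germins, defensins and inhibitors summed to 2557, 2609, 2554 and 2374 CPM in controls and 5273, 9197 and 5606 CPM beside the isolate, 2.65 times the control mean. In it 47 of 87 genes rose, 36 of them at least 2-fold, and 3 fell (0 without CTB P6B8 replicate 3 or control replicate 2, 1 without CTB P6B8 replicate 1 or control replicate 3), with a median of 0.94. A Bowman-Birk type wound-induced protease inhibitor (LOC117855039) was at 268, 253, 244 and 244 CPM in controls and 1063, 2046 and 1018 CPM beside the isolate (2.45 ± 0.22, edgeR adjusted p = 1.10e-06). Xylanase inhibitor protein 1 (LOC117866477), of a family that blocks microbial xylan-degrading enzymes, was at 5.47, 5.49, 5.95 and 5.74 CPM in controls and 15.3, 15.6 and 14.03 CPM beside the isolate (1.40 ± 0.13). Of the 47 higher genes of this list, the replicate farthest from the controls was replicate 2 in 34, replicate 3 in 7 and replicate 1 in 6. Chitinases and beta-1,3-glucanases, which cut fungal wall polymers, had 37 of 72 genes higher and 5 lower (2 without CTB P6B8 replicate 3, 3 without CTB P6B8 replicate 1 or control replicate 2 or 3), with sums of 1559 to 1676 CPM in controls and 3277, 5479 and 3353 CPM beside the isolate. Class III peroxidases, which crosslink wall polymers, summed to 2076 to 2246 CPM in controls and 3576, 4566 and 3530 CPM beside the isolate, and 35 of 87 rose and 9 fell. Peroxidase A2 (LOC117841093) was at 10.5, 4.24, 6.95 and 7.60 CPM in controls and 45.3, 29.1 and 42.8 CPM beside the isolate (2.43 ± 0.23).

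In the families of cell surface receptor kinases more genes rose than fell, and among intracellular immune receptors of the NLR class more fell than rose. Of 101 cysteine-rich and wall-associated kinases, 57 rose and 5 fell (3 without CTB P6B8 replicate 3), with a median of 0.69, and of 81 lectin-domain kinases 40 rose and 4 fell (2 without CTB P6B8 replicate 1), with a median of 0.65. Cysteine-rich receptor-like kinase LOC117855575 was at 11.5, 15.5, 14.8 and 12.1 CPM in controls and 48.6, 39.1 and 40.9 CPM beside the isolate (1.67 ± 0.12, edgeR adjusted p = 1.58e-07). Of 181 leucine-rich repeat kinases 58 rose and 30 fell (18 without CTB P6B8 replicate 3). A kinase described as Xa21-like (LOC117867112), after a rice receptor for a bacterial ligand, rose by 1.68 ± 0.21. Of 241 NLR genes, by contrast, 103 fell and 29 rose, with a median of -0.28, and the sum was 5114 to 5766 CPM in controls and 3951 to 4381 CPM beside the isolate. The Pik-2-like gene LOC117833123, named after a rice protein of blast fungus resistance, was at 153, 158, 145 and 153 CPM in controls and 53.1, 49.5 and 44.1 CPM beside the isolate (-1.64 ± 0.11, edgeR adjusted p = 1.48e-07). An RGA5-like gene (LOC117833358, -1.07 ± 0.10) fell too. In the other direction, the Pik-1-like gene LOC117833240 (0.54 ± 0.10) and an RPM1-like gene (LOC117839672, 0.70 ± 0.18, chosen after its values were seen) rose. NLR genes often sit in clusters of near-identical copies, and counts may be shared between them.

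More genes of the shikimate, phenylpropanoid, terpenoid, cytochrome P450, UDP-glycosyltransferase and glutathione S-transferase lists rose than fell. The transporter lists were balanced, with 25 of 96 ABC transporters higher and 25 lower (15 without CTB P6B8 replicate 3), and 6 of 50 MATE transporters higher and 6 lower (3 without CTB P6B8 replicate 3). Of 45 shikimate and tryptophan genes, 25 rose and 4 fell, with sums of 2026 to 2106 CPM in controls and 2595 to 2878 CPM beside the isolate. A DAHP synthase (LOC117861454), the first step of the shikimate pathway, was at 211, 251, 265 and 279 CPM in controls and 439, 540 and 445 CPM beside the isolate (0.92 ± 0.11), and a second (LOC117844786) rose by 1.29 ± 0.15. Further along, anthranilate synthase alpha subunit 2 (LOC117837918, 1.03 ± 0.15) and tryptophan synthase beta chain 1 (LOC117861175, 0.65 ± 0.09) rose. Of the alpha chain genes, one (LOC117845783) rose by 0.81 ± 0.11 and the other (LOC117840822) fell by 0.43 ± 0.10, at 103 to 123 CPM in controls and 78.4 to 90.5 CPM beside the isolate. These tryptophan genes were picked with their values known.

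The lignin and phenylpropanoid list had 48 of 119 genes higher and 16 lower. Phenylalanine ammonia-lyase (LOC117865862), the entry into phenylpropanoids, was at 8.77, 12.1, 9.77 and 8.94 CPM in controls and 39.1, 32.1 and 26.3 CPM beside the isolate (1.71 ± 0.19), while cinnamoyl-CoA reductase 2 (LOC117836105), of the lignin branch, fell by 2.22 ± 0.23. Flavonoid and anthocyanin genes had 15 of 40 higher and 3 lower (0 without CTB P6B8 replicate 3, 1 without CTB P6B8 replicate 1 or control replicate 2). Terpenoid and benzoxazinoid genes had 25 of 52 higher, 22 of them at least 2-fold, and 4 lower (2 without CTB P6B8 replicate 3 or control replicate 3, 1 without CTB P6B8 replicate 1), with a median of 0.88. Ent-copalyl diphosphate synthase 2 (LOC117841994), at the start of labdane-type diterpenes, was at 6.14, 16.5, 16.0 and 15.4 CPM in controls and 94.2, 43.1 and 74.5 CPM beside the isolate (2.38 ± 0.44), and ent-kaurene oxidase 2 (LOC117853040), which acts later in diterpene synthesis, rose by 1.87 ± 0.33. Control replicate 1 was the lowest control in both, and the groups did not overlap. Cytochrome P450 genes had 56 of 123 higher and 12 lower (7 without CTB P6B8 replicate 1 or 3), glycosyltransferases of the UGT family 31 of 93 higher and 6 lower, and glutathione S-transferases, which attach glutathione to reactive compounds, 32 of 63 higher and 6 lower. CYP72A219 (LOC117855439) was at 6.61, 7.83, 8.01 and 7.86 CPM in controls and 48.3, 24.8 and 35.2 CPM beside the isolate (2.25 ± 0.17, edgeR adjusted p = 2.35e-07).

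Among antioxidant enzymes, chloroplast members named here fell, and cytosolic and mitochondrial ones rose. Of 45 genes 14 rose and 15 fell, with a median of 0.04. The sum was 5286 to 5619 CPM in controls and 6537 to 6968 CPM beside the isolate. Most of that difference came from a single gene, catalase isozyme 3, given below. Chloroplast copper-zinc superoxide dismutase (LOC117860655), which removes superoxide, was at 173, 150.2, 144 and 137 CPM in controls and 51.4, 42.7 and 46.7 CPM beside the isolate (-1.69 ± 0.14, edgeR adjusted p = 4.11e-07), and the chloroplast ascorbate peroxidase 8 (LOC117859935) fell by 1.05 ± 0.11. The mitochondrial manganese superoxide dismutase 3.1 (LOC117850226, 0.67 ± 0.07) and the cytosolic ascorbate peroxidase 2 (LOC117842945, 0.79 ± 0.12) rose. Both ascorbate peroxidases were chosen after their values were seen. Catalases, which split hydrogen peroxide, divided as well. Catalase isozyme 3 (LOC117841557) was at 1020, 1202, 1070 and 991 CPM in controls and 2181, 2015 and 2643 CPM beside the isolate (1.09 ± 0.15), whereas catalase isozyme C (LOC117840633) fell by 0.98 ± 0.10.

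All protein folding genes of the endoplasmic reticulum that were called rose. Of 22 tested, 12 rose and 0 fell (1 without control replicate 1), none at least 2-fold, with sums of 1435 to 1603 CPM in controls and 2007 to 2153 CPM beside the isolate. Endoplasmin (LOC117851319), the HSP90 of this compartment, was at 68.6, 80.0, 73.7 and 71.2 CPM in controls and 144, 134 and 142 CPM beside the isolate (0.93 ± 0.11), protein disulfide-isomerase (LOC117833431) rose by 0.66 ± 0.08, and the luminal-binding protein 3 (LOC117841548, chosen after its values were seen) by 0.70 ± 0.12. Small heat shock proteins and heat factors had 25 of 46 higher and 3 lower, with a median of 0.80, but their sums overlapped, at 705 to 771 CPM in controls and 712 to 807 CPM beside the isolate. The stromal 70 kDa heat shock protein (LOC117848821) fell by 0.35 ± 0.08, and the 17.9 kDa class I protein (LOC117837276) was at 14.2, 13.5, 14.4 and 14.6 CPM in controls and 33.5, 37.6 and 32.2 CPM beside the isolate (1.28 ± 0.08). A heat shock 70 kDa protein (LOC117855957) rose by 2.38 ± 0.20. Of 193 cytosolic ribosomal proteins 62 rose and 0 fell, with a median of 0.17. This count was 27 without CTB P6B8 replicate 1, 36 without replicate 3, 101 without replicate 2, 39 without control replicate 3 and 36 without control replicate 4, and the summed levels overlapped.

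More WRKY and AP2/ERF transcription factors rose than fell. Of 72 WRKY factors, which act in defence signalling, 40 rose and 5 fell (2 without CTB P6B8 replicate 3), with a median of 0.76, and WRKY31 (LOC117854979) was at 6.48, 10.1, 9.08 and 8.17 CPM in controls and 36.4, 27.6 and 24.5 CPM beside the isolate (1.80 ± 0.17). Of 90 AP2/ERF factors 30 rose and 4 fell (0 without CTB P6B8 replicate 3, 2 without control replicate 2). RAP2-3 (LOC117840982), of an ERF group known in Arabidopsis for responses to low oxygen, was at 5.26, 6.80, 6.72 and 5.01 CPM in controls and 27.8, 34.5 and 38.0 CPM beside the isolate (2.50 ± 0.16, edgeR adjusted p = 7.05e-08). NAC factors had 19 of 61 higher (12 without CTB P6B8 replicate 2) and 11 lower. The lower count was 5 to 7 without CTB P6B8 replicate 1 or 3 or control replicate 3 or 4. Their median was -0.01, and their sums overlapped, at 2459 to 2538 CPM in controls and 2336 to 2805 CPM beside the isolate. NAC68 (LOC117857365) rose by 1.92 ± 0.14. Among homeobox-leucine zipper and growth-regulating factors more fell than rose, with 29 of 89 lower and 10 higher. The ROC genes of this list, named after a rice family expressed in the epidermis, included ROC2 (LOC117865503, -0.80 ± 0.10) and ROC7 (LOC117861222, -0.84 ± 0.11).

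More jasmonate genes rose than fell, and more auxin and cytokinin genes fell than rose. Of 49 jasmonate and TIFY genes 27 rose and 3 fell (1 without CTB P6B8 replicate 3). The putative 12-oxophytodienoate reductase LOC117847303, of a family that includes a jasmonate synthesis enzyme, was at 10.1, 13.3, 12.7 and 11.1 CPM in controls and 39.3, 38.5 and 36.2 CPM beside the isolate (1.69 ± 0.17), and allene oxide cyclase (LOC117840603) rose by 1.10 ± 0.12. Of 117 auxin genes 54 fell, 20 of them at least 2-fold, and 16 rose, with sums of 4593 to 4852 CPM in controls and 3582 to 3649 CPM beside the isolate. Auxin response factor 18 (LOC117852829) was at 88.0, 83.2, 85.1 and 89.0 CPM in controls and 52.6, 54.8 and 48.9 CPM beside the isolate (-0.73 ± 0.07, edgeR adjusted p = 1.61e-06). The influx carrier auxin transporter-like protein 1 (LOC117855244, -0.91 ± 0.09), the efflux carrier PIN1a (LOC117837799, -0.89 ± 0.10) and auxin response factor 8 (LOC117863124, -1.07 ± 0.13) fell, the last 2 chosen after their values were seen. Cytokinin genes had 14 of 40 lower (9 without CTB P6B8 replicate 3) and 7 higher, with sums of 1640 to 1868 CPM in controls and 1204 to 1351 CPM beside the isolate. The receptor histidine kinase 4 (LOC117837607) fell by 0.66 ± 0.08. In ethylene signalling 8 of 26 fell and 5 rose. EIN3-binding F-box protein 1 (LOC117859066), which targets the ethylene factor EIN3 for breakdown, was at 582, 630.0, 622 and 548 CPM in controls and 239, 227 and 204 CPM beside the isolate (-1.42 ± 0.14), and an ACC oxidase (LOC117851022), which makes ethylene, rose by 1.33 ± 0.15. Of 113 abscisic acid, PP2C and LEA genes 31 rose and 26 fell, and both shares (27.4% and 23.0%) were near the 22.6% and 22.7% of all genes. Abscisic stress-ripening protein 5 (LOC117866219), a small protein induced by drying in other plants, was at 186, 158, 214 and 228 CPM in controls and 536, 575 and 670 CPM beside the isolate (1.59 ± 0.11).

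More genes of cellulose synthesis, the cytoskeleton and cell division fell than rose. None of 23 cellulose synthases and related genes rose and 12 fell, with a median of -0.36 and sums of 2362 to 2518 CPM in controls and 1763 to 1960 CPM beside the isolate. Cellulose synthase A gene LOC117843743 was at 86.0, 77.8, 84.2 and 81.3 CPM in controls and 34.9, 38.0 and 34.4 CPM beside the isolate (-1.20 ± 0.10, edgeR adjusted p = 4.84e-07). Of 30 tubulins and actins 11 fell and 3 rose. Actin-7 (LOC117864194) was at 1095, 1075, 1061 and 1048 CPM in controls and 485, 555 and 509 CPM beside the isolate (-1.05 ± 0.09), whereas actin-2 (LOC117839433) rose by 0.53 ± 0.08. Cyclins, kinesins and replication genes had 29 of 124 lower (19 without CTB P6B8 replicate 3) and 12 higher. Their lower share, 23.4%, was near the 22.7% of all genes, and their higher share, 9.68%, was below the 22.6% of all genes. The kinesin KIN-14L (LOC117854027), a motor on microtubules, was at 375, 366, 383 and 411 CPM in controls and 181, 167 and 164 CPM beside the isolate (-1.17 ± 0.08). Expansins, which loosen walls, had 5 of 27 lower and 2 higher, and histones 4 of 47 lower (7 without control replicate 1, 2 without CTB P6B8 replicate 2 or 3) and 5 higher. Both shares were below those of all genes in expansins (18.5% lower, 7.41% higher) and histones (8.51% lower, 10.6% higher).

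The clock gene CCA1 (LOC117861503), a morning factor of the circadian oscillator, was at 5062, 5135, 4949 and 5145 CPM in controls and 2308, 2384 and 2087 CPM beside the isolate (-1.17 ± 0.09, edgeR adjusted p = 2.71e-07). The related REVEILLE 6 (LOC117866937, -0.86 ± 0.06) and REVEILLE 2 (LOC117833204, -1.09 ± 0.16) fell. GIGANTEA (LOC117857839), an evening gene, was at 119, 144, 168 and 167 CPM in controls and 289, 242 and 319 CPM beside the isolate (0.92 ± 0.17). REVEILLE 2 and GIGANTEA were chosen after their values were seen. Of 20 clock genes 9 fell and 4 rose (7 without control replicate 4). The labels do not give the time of day at which each group was harvested.

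Among genes of high level with a fold of at least 2, several belong to no pathway named so far. Protein TSS (LOC117841118), related to a plant protein with tetratricopeptide repeats, was at 1328, 1335, 1303 and 1398 CPM in controls and 544, 474 and 524 CPM beside the isolate (-1.38 ± 0.09). F-box/LRR-repeat protein 3 (LOC117849457) was at 270.2, 289, 337 and 324 CPM in controls and 118, 113 and 104 CPM beside the isolate (-1.45 ± 0.08, edgeR adjusted p = 4.39e-08). Higher were a 2,3-dimethylmalate lyase-like gene (LOC117863820, 1.44 ± 0.23), the copper chaperone CCH (LOC117838900, 1.09 ± 0.11) and a TauE/SafE family transporter (LOC117842696, 1.01 ± 0.13). An elongation factor 1-alpha-like gene (LOC117842510, 3.89 ± 0.55) was at 335 CPM in CTB P6B8 replicate 1 and 79.3 and 91.2 CPM in the others, and at 2.90 without that replicate.

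To see where the response to this isolate differed from the others, CTB P6B8 was compared directly with AI2.2-A and MTS P5D6. Against AI2.2-A 2110 genes were called (10.4% of those tested), 1190 higher (5.86%) and 920 lower (4.53%) with CTB P6B8. Against MTS P5D6 5347 genes were called (26.3%), 3096 higher (15.2%) and 2251 lower (11.1%). Without CTB P6B8 replicate 2 the first count was 644, without AI2.2-A replicate 1 it was 1020 and without AI2.2-A replicate 3 it was 1282, and without CTB P6B8 replicate 3 the second was 3345. Genes that differed in one direction from all 3 other groups were ranked by the smallest of their 3 changes, so their values are a description. A jacalin-related lectin 3 (LOC117857035), a carbohydrate-binding protein, was at -1.54 against control, -1.03 against AI2.2-A and -0.98 against MTS P5D6 on the log2 scale, and an organ size gene named for auxin regulation (LOC117865691) at -1.11, -1.78 and -1.03. Higher with CTB P6B8 were a stearoyl-carrier-protein desaturase (LOC117836409), a lipid enzyme, by 1.09, 0.81 and 1.49, and the chromatin factor POB3 (LOC117860091), of the complex that moves histones for transcription, by 1.30, 1.33 and 0.75. A salicylic acid-binding protein 2-like gene (LOC117855292) was at 9.18, 33.0 and 10.1 CPM beside CTB P6B8 and 6.34 to 8.32 CPM in controls, and without replicate 2 it was not called (0.38, edgeR adjusted p = 0.190).

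**Figure D5:**
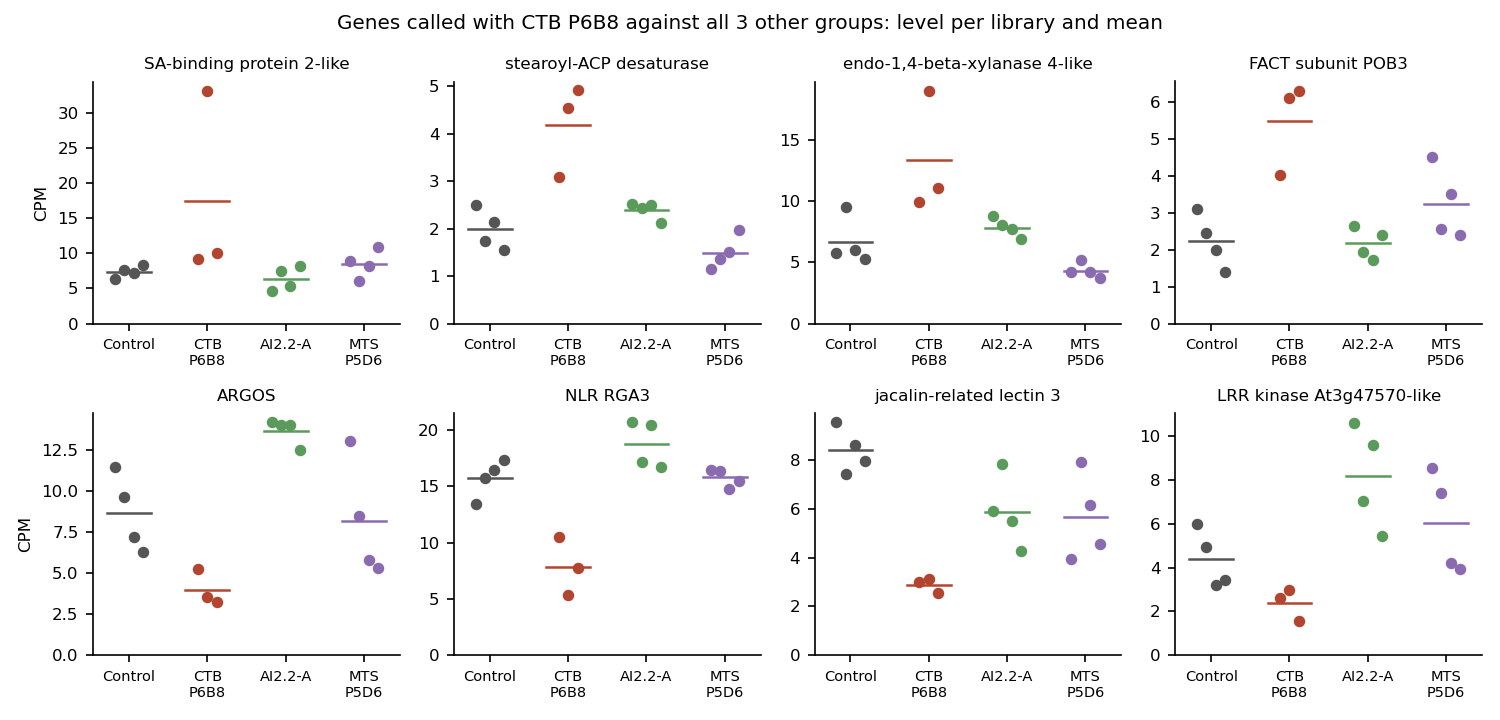
Level in CPM (vertical axis) of 8 genes that differed in the same direction between CTB P6B8 and each of the other 3 groups, by library in the 4 groups, with a line for each mean. The jacalin-related lectin 3 lies at 2.55 to 3.11 CPM in the CTB P6B8 libraries and at 7.45 to 9.58 CPM in controls. The LRR kinase LOC117857524 was not called against control without CTB P6B8 replicate 3 (-0.61, edgeR adjusted p = 0.21). Nor was it called without control replicate 1 (-0.73, edgeR adjusted p = 0.113).

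In the authors' deposited table for the same comparison, 9331 genes had an adjusted p below 0.05, of 20266 genes with a value among those tested here, 4764 higher and 4567 lower. Of these, 8705 were also called here, and 0 of them had opposite signs. The p-value and adjusted p-value columns of the authors' deposited table held the same value in 100% of lines. Benjamini-Hochberg adjustment of the p-values that its test statistics give differed from that value by at most 0.26% over 22316 genes, so both columns hold adjusted p-values.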

How the data were processed

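RNA-seq read counts per gene were deposited by the authors as raw whole numbers. Tools listed in the submitters' processing notes are FastQC and Trimmomatic 036, HISAT2, featureCounts, and DESeq2 1.6.3. No build, annotation or strand setting is stated for the counting, and reads of overlapping, antisense or near-identical genes may therefore be split or shared between them. The authors' deposited table for this comparison holds log2 fold changes and p-values and, per the file headers, has the form of DESeq2 output. Gene names came from that table and from RefSeq (assembly Setaria_viridis_v4.0), in which 26304 of 28032 gene IDs were found, and no coordinates were taken from it. No sequences were used.

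Counts were fitted in edgeR 4.0.16 (R 4.3.3) with TMM scaling, filterByExpr, all 15 libraries in one fit and group as the only term, and tested two-sided with glmQLFTest and Benjamini-Hochberg adjustment over the 20310 genes tested. CPM are counts per 1000000 of the TMM-scaled library total. The script was tested on simulated data in which few genes were changed, as many up as down. That test does not cover data with as many calls as these. Alternatives were other scalings, filters and thresholds, DESeq2 1.42.0, limma 3.58.1 (voom with quality weights), the compared groups alone, a replicate block and leaving out each library.

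The gene lists were formed from words in the gene descriptions, and members and lists were chosen with earlier results of these data known. Named genes are, per list, up to 2 called members of smallest p in the direction with more calls and up to 1 in the other (mean log2 CPM of at least 3); the 5 higher and 5 lower genes of largest mean CPM among called, non-overlapping changes of at least 2-fold; the 5 higher and 5 lower of smallest p; and 4 higher and 4 lower called in the same direction against all 3 other groups (mean log2 CPM of at least 1). All but the first had to have an informative description, and some genes that meet the rule are left out of the text. Other genes named are said to be chosen after their values were seen. Counting error is part of the spread between replicates, and no 2 libraries of a group agreed within sampling noise (chi-square per degree of freedom 2.69 to 21.4).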

Additional observations from a re-analysis of the deposited data

Results flagged for a closer look

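Among the 243 named genes and 68 list sums, 17 genes and 4 sums had 1 control library far from the other 3, by a gap relative to the group's range above Dixon's 95% critical value. Chance gives about 1 such case in 20 groups. Control replicate 1 was the library apart in 17 of the 21 cases. It was the highest control for cytosolic glutamine synthetase 1-1 (211 CPM), ferric reductase FRO7 (165 CPM), UDP-glycosyltransferase 76B1-like LOC117846338 (110.1 CPM), NAC29-like LOC117866380 (162 CPM), the strigolactone enzyme D27 (LOC117859878, 25.6 CPM), carbonic anhydrase (2232 CPM), granule-bound starch synthase 1b (378 CPM), glutamyl-tRNA reductase 2 (643 CPM), the C4 and Calvin cycle sum (62619 CPM) and the pectin sum (858 CPM). It was the lowest control for the metal-nicotianamine transporter LOC117865497 (35.0 CPM), CYP72A219 (6.61 CPM), germin-like protein 5-1 (LOC117847473, 9.45 CPM), ent-kaurene oxidase 2 (11.3 CPM), ent-copalyl diphosphate synthase 2 (6.14 CPM), anthranilate synthase alpha subunit 2 (31.7 CPM) and the terpenoid and benzoxazinoid sum (562 CPM). Control replicate 3 stood apart for CYP89A2-like LOC117859603 (7.63 CPM) and NAC82-like LOC117857146 (38.2 CPM), control replicate 2 for lipid-transfer protein 2P (LOC117840668, 34.2 CPM) and control replicate 4 for the aminoacyl-tRNA ligase sum (4553 CPM). With 3 libraries, the CTB P6B8 group was not looked at in this way.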

How the results depend on the processing

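At an adjusted p below 0.05 the count of calls against control ran from 7696 to 10388 over the alternatives, with 9199 by DESeq2. It was 6258 at 0.01, and with a fold of at least 2 it was 2206, of which 1738 were higher and 468 lower. Leaving out 1 library at a time gave 7696 to 8497 calls, 3970 to 4429 higher and 3267 to 4307 lower, the lowest lower count without CTB P6B8 replicate 3. The higher share of calls, 49.9%, became 63.8% by library totals only and 78.8% among 2-fold calls.

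Against AI2.2-A the counts of all, higher and lower calls were 871, 498 and 373 with only the groups compared, 489, 300 and 189 at 0.01, and 393, 219 and 174 with a 2-fold limit. Leaving out 1 library gave 644 to 2464, 368 to 1344 and 276 to 1120. Against MTS P5D6 they were 2574, 1667 and 907 at 0.01, and 1097, 925 and 172 with a 2-fold limit, and 1411 were lower by library totals only. Leaving out 1 library gave 3345 to 4775, 2103 to 2771 and 1242 to 2071. The cause of these moves was not tested beyond the fewer libraries and stricter limits themselves.

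Replicate numbers showed no pairing between control and CTB P6B8 libraries. Deviations of same-numbered control and CTB P6B8 libraries correlated at -0.07, 0.07 and 0.00, and a fit with the replicate block gave 8439 calls against control. Such correlations were not computed with AI2.2-A and MTS P5D6 libraries. With the replicate block the count was 1979 against AI2.2-A and 4140 against MTS P5D6.

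Of 241 named genes called, 232 passed at 0.01 and 111 with the 2-fold limit. Over the other 15 alternatives 41 of 3645 values of named genes lost their call and 2 changed sign, both for asparagine synthetase (LOC117849985), which was not called and was at -0.015 by limma-voom and -0.027 without control replicate 1, in a leave-one-out range up to 0.076. Counts of list members stayed within 1.5 times in 1987 of 2312 cases and moved further in 325, of which 124 were with the 2-fold limit, 49 at 0.01, 34 without CTB P6B8 replicate 3 and 27 by library totals only. Library totals only gave 113 in place of 62 higher cytosolic ribosomal proteins and 19 in place of 30 lower leucine-rich repeat receptor kinases. Between 43 and 47 of the 68 list medians lay above that of all genes. With 3 and 4 libraries a group, changes under 1.5-fold of genes at a few CPM are those least well resolved.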

Other observations

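Transport and lipid genes not described so far moved in both directions. Of 60 potassium, sodium and proton transport genes 16 rose and 17 fell, with potassium transporter 10 (LOC117852311, 0.76 ± 0.07) higher and the guard cell type channel KAT2-like (LOC117855762, -1.07 ± 0.14) lower, and their sum was 8380 to 9354 CPM in controls and 7601 to 8242 CPM beside the isolate. The ABC transporter ABCG11-like (LOC117842547), of a subfamily that exports cutin and wax precursors in Arabidopsis, was at 18.8, 33.1, 27.6 and 24.6 CPM in controls and 58.5, 72.6 and 42.1 CPM beside the isolate (1.14 ± 0.18). The chloroplast-described ABCD2 (LOC117857625) fell by 1.01 ± 0.08. Of 170 lipid transfer, GDSL lipase and wax genes 53 rose and 30 fell, and non-specific lipid-transfer protein 1-like LOC117862450 was at 35.7, 25.99, 34.4 and 30.6 CPM in controls and 72.8, 93.2 and 89.6 CPM beside the isolate (1.43 ± 0.14).

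Of 125 calcium sensors and calcium-regulated kinases 39 rose and 23 fell (14 without CTB P6B8 replicate 3). CBL-interacting protein kinase 1 (LOC117858554), which acts with calcineurin B-like sensors, was at 399, 335, 379 and 379 CPM in controls and 155, 169 and 158 CPM beside the isolate (-1.22 ± 0.09), while the sensor CML36-like LOC117866701 rose by 1.92 ± 0.21. Of 16 brassinosteroid and strigolactone genes 6 fell and 3 rose, the receptor BRI1 (LOC117856790) falling by 0.80 ± 0.10 and a second BRI1-like kinase (LOC117860970) rising by 0.73 ± 0.14. Among 112 long non-coding RNA genes tested, 19 rose and 12 fell, and among 28 pseudogenes 7 rose and 10 fell. For the long non-coding RNA genes both shares lay below the 22.6% higher and 22.7% lower of all genes. For the pseudogenes the higher share was near that of all genes and the lower share above it.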
